A study of Homo sapiens with 9 samples.

Results

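The genes described here are 10 genes of the endoplasmic reticulum (ER) and of its stress response: HSPA5, HSP90B1, HERPUD1, SDF2L1, DNAJB9, XBP1, HYOU1, PDIA4, CALR and MANF. They were taken by name, as rows of the deposited tables, from 58336 genes listed in 9 libraries of HaCaT cells, an immortalised line of human skin keratinocytes. All 10 were in the tables, and all 10 passed the filter on low counts that left 13845 genes for testing.

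Per the labels, the study has 3 untreated control samples and 6 samples given low-dose ALA-PDT: 0.5 mmol/L 5-aminolevulinic acid (ALA), then light of 635 ± 5 nm at 3 J/cm2. Of the treated samples, 3 were kept for 12 h after the light and 3 for 48 h. ALA is turned by cells into the photosensitiser protoporphyrin IX, which releases reactive oxygen when lit; this is the basis of photodynamic therapy (PDT). The library columns are named Nc1 to Nc3, A1 to A3 and B1 to B3. Nc was read as the control, which the labels do not spell out, and A and B were read as the 2 treated sets, since 6 columns then stand for 6 treated samples. No label ties A or B to 12 h or to 48 h, so the sets are called A and B throughout and no time is given to either. HaCaT is a single line, and no label says whether the 3 samples of a group came from separate cultures, so p-values measure only the spread between these samples.

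The ER folds secreted and membrane proteins with chaperones, among them the HSP70 family member encoded by HSPA5 (BiP) and the HSP90 family member encoded by HSP90B1 (GRP94), and with oxidoreductases that form disulfide bonds. When unfolded proteins build up, the sensors IRE1 (ERN1), PERK (EIF2AK3) and ATF6 start the unfolded protein response (UPR). IRE1 splices XBP1 mRNA into the form that encodes an active transcription factor, ATF6 is cut to release another, and PERK slows translation while translation of ATF4 goes up. The counts used here are per gene, so they do not separate spliced from unspliced XBP1 mRNA.

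Library totals ran from 15337296 (A3) to 18028419 (B3) counts. Of 10 keratinocyte markers, 8 (control and B) or 9 (A) had at least 10 counts in each library of a set. KRT5 had 5016 to 7991 counts, while KRT14, the usual partner of KRT5, had 2 to 20 and KRT1 had 0 or 1. Counts summed over 8 blood cell markers were 7624, 7712 and 30 in Nc1, Nc2 and Nc3, 690, 1328 and 69 in A1, A2 and A3, and 46, 63 and 8714 in B1, B2 and B3. Hemoglobin beta (HBB) made up most of these counts in Nc1, Nc2 and B3, at 6700, 6665 and 7550, and these libraries stood apart. It also made up most of them in A1 and A2, at 519 and 1115. In Nc3, A3, B1 and B2 it had 2 to 7 counts. The fits below without the HBB-rich libraries left out Nc1, Nc2 and B3 only and kept A1 and A2. Summed counts were 56 to 258 for 8 fibroblast markers, 109 to 208 for 6 melanocyte markers and 27 to 246 for 6 endothelial markers. The endothelial sum was 197 to 246 in B against 48 to 73 in the control. CDH5 made up most of it in B, at 185, 230 and 206 counts, against 52, 31 and 45 in the control. PECAM1 had 6, 7 and 22 counts in B and 15, 19 and 0 in the control. VWF, KDR, TEK and CLDN5 had at most 4 in any library. The fibroblast markers COL3A1, DCN and LUM had counts in A1 and A2 (27 and 31, 11 and 11, 9 and 14) and 0 in all other libraries. Libraries also differed in base composition. Over the fifth of genes lowest in GC content, the median log2 deviation from the gene's mean was highest in Nc1 at 0.43 and lowest in B3 at -0.27. The part of these differences in the results was not tested, beyond the values given beside the genes.

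The promoters are shown before the values. Some members with a match to the same motif moved in opposite directions, though their matches differ in number, strand or distance from the start. Whether the motifs bear on the direction was not tested. The ER stress response element (ERSE) is read here as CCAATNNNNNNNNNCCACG and its variant ERSE-II as ATTGGNCCACG, where N is any base. The CCAAT part is the site of the factor NF-Y, and the other end is the part known to be bound by ATF6 and XBP1. Both strands of RefSeq windows (GRCh38.p14) from 250 bases before to 50 bases after a gene's start were searched. ERSE was in 27 of 35116 windows (0.077%) and ERSE-II in 19 (0.054%). All 10 genes matched by symbol, with 12 windows in all since PDIA4 and XBP1 have 2 each. Of these 12 windows, 4 held an ERSE (CALR, HSP90B1, HSPA5 and XBP1) and 3 held an ERSE-II (HERPUD1, HYOU1 and SDF2L1). The motif TGACGTGG, the core of the UPR element, was in 256 windows (0.729%) and among the members in that of HYOU1, where it overlaps an ERSE-II. The windows of DNAJB9, MANF and PDIA4 held none of these 3 motifs. The single parts are common: 38.088% of all windows held the CCACG part and 34.614% held the NF-Y part. A match is a description of letters and no evidence of binding. The elements are given below as they stand on the gene's strand, 5′ to 3′, with both parts of the motif in capitals. The order is reversed where the motif lies on the other strand.
HSPA5 ERSE, chr9:125241391-125241409: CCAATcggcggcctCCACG
XBP1 ERSE, chr22:28800603-28800621: CCAATcgcggagggCCACG
HSP90B1 ERSE, chr12:103930216-103930234: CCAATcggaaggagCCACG
HSP90B1 ERSE, chr12:103930321-103930339: CGTGGtgcggcgcgATTGG
CALR ERSE, chr19:12938384-12938402: CGTGGtcgaccatcATTGG
HERPUD1 ERSE-II, chr16:56932025-56932035: ATTGGgCCACG
SDF2L1 ERSE-II, chr22:21642114-21642124: CGTGGaCCAAT
HYOU1 ERSE-II, chr11:119057380-119057390: CGTGGtCCAAT
HYOU1 ERSE-II, chr11:119057274-119057284: CGTGGtCCAAT
The ERSE of HSPA5 lay 66 to 48 bases before the start and that of XBP1 52 to 34 bases before it. Those of HSP90B1 lay 194 to 176 and 89 to 71 bases before the start, and that of CALR 225 to 207. The ERSE-II of HERPUD1 lay 117 to 107 bases before the start, that of SDF2L1 188 to 178, and those of HYOU1 185 to 175 and 79 to 69. These starts are those of the RefSeq windows and can differ from the deposited gene coordinates given further on. Both elements of HSP90B1 lie after the deposited start of that gene.

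For the 4 members that passed the test in set B against the control, the 250 bases before the start are printed in full (for XBP1, of the window with the ERSE), with the ERSE or ERSE-II in capitals. XBP1 and HSP90B1 carry the ERSE, while HERPUD1 and SDF2L1 carry the ERSE-II. In each pair the former was higher in B than in the control and the latter lower, as described further on.
XBP1, chr22:28800570-28800819, minus strand: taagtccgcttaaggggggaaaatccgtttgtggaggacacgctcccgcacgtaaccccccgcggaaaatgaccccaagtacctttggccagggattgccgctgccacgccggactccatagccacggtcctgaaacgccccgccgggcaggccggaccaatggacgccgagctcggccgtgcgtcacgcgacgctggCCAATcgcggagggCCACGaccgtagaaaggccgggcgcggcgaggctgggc
HSP90B1, chr12:103930160-103930409, plus strand: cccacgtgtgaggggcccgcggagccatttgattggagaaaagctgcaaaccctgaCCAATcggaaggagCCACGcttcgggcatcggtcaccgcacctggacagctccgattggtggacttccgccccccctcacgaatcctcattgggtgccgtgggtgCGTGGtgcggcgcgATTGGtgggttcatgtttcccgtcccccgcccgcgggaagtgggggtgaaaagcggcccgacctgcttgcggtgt
HERPUD1, chr16:56931892-56932141, plus strand: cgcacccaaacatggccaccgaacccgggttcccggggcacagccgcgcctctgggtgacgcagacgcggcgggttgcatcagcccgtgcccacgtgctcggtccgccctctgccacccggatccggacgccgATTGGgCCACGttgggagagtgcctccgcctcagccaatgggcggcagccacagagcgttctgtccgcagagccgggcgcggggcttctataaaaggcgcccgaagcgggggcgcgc
SDF2L1, chr22:21642052-21642301, plus strand: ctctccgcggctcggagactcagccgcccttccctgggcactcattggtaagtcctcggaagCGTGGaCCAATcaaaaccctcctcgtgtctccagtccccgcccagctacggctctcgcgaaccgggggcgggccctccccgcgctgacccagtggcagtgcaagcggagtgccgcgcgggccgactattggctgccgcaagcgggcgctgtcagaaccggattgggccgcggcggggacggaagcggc

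Levels of different genes are compared in the authors' FPKM, which are per kilobase of gene length. In the control libraries CALR, which encodes the calcium-binding lectin chaperone calreticulin, was the highest of the 10 at 329 ± 16.7 FPKM (SD, n = 3). HSPA5 followed at 124 ± 17.6 and HSP90B1 at 80.1 ± 11.4. SDF2L1 at 48.3 ± 13.9, PDIA4 at 37.4 ± 2.12 and XBP1 at 37.0 ± 3.21 overlapped from library to library and cannot be ordered. MANF stood at 28.2 ± 3.67, HYOU1 at 13.4 ± 0.981, HERPUD1 at 5.41 ± 0.237 and DNAJB9 at 0.884 ± 0.103. The length used for HERPUD1 was 5155 bases, against 2946 for its longest GENCODE 29 transcript, those for HYOU1 were 7694 and 4529, and those for HSP90B1 4695 and 3032, while both were 3908 for HSPA5. Per length of the longest transcript, HSP90B1 would stand at 124 ± 17.6 FPKM in the control and HSPA5 at 124 ± 17.6, so the order of these genes depends on the length used.

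The order differed in the treated sets. In B, XBP1 stood at 63.8 ± 4.68 FPKM and HSP90B1 at 47.9 ± 7.64, and XBP1 was the higher of the pair in 3 of 3 libraries, whereas HSP90B1 was the higher in 3 of 3 control libraries. SDF2L1 was at 28.2 ± 6.61 in B, and MANF at 28.7 ± 1.72 lay within the spread of SDF2L1. In A, SDF2L1 at 67.9 ± 16.5 overlapped HSP90B1 at 73.5 ± 10.9. CALR kept the top place in each of the 9 libraries, at 369 ± 22.8 in A and 334 ± 21.3 in B. The summed level of the 10 genes, in CPM (counts scaled to a common library size, with TMM factors), was 2228.4 ± 134 in the control, 2522.7 ± 60.0 in A and 2126.9 ± 18.3 in B. CALR alone made up 40.0 ± 1.39%, 40.0 ± 2.48% and 42.9 ± 2.13% of it.

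**Figure D1:**
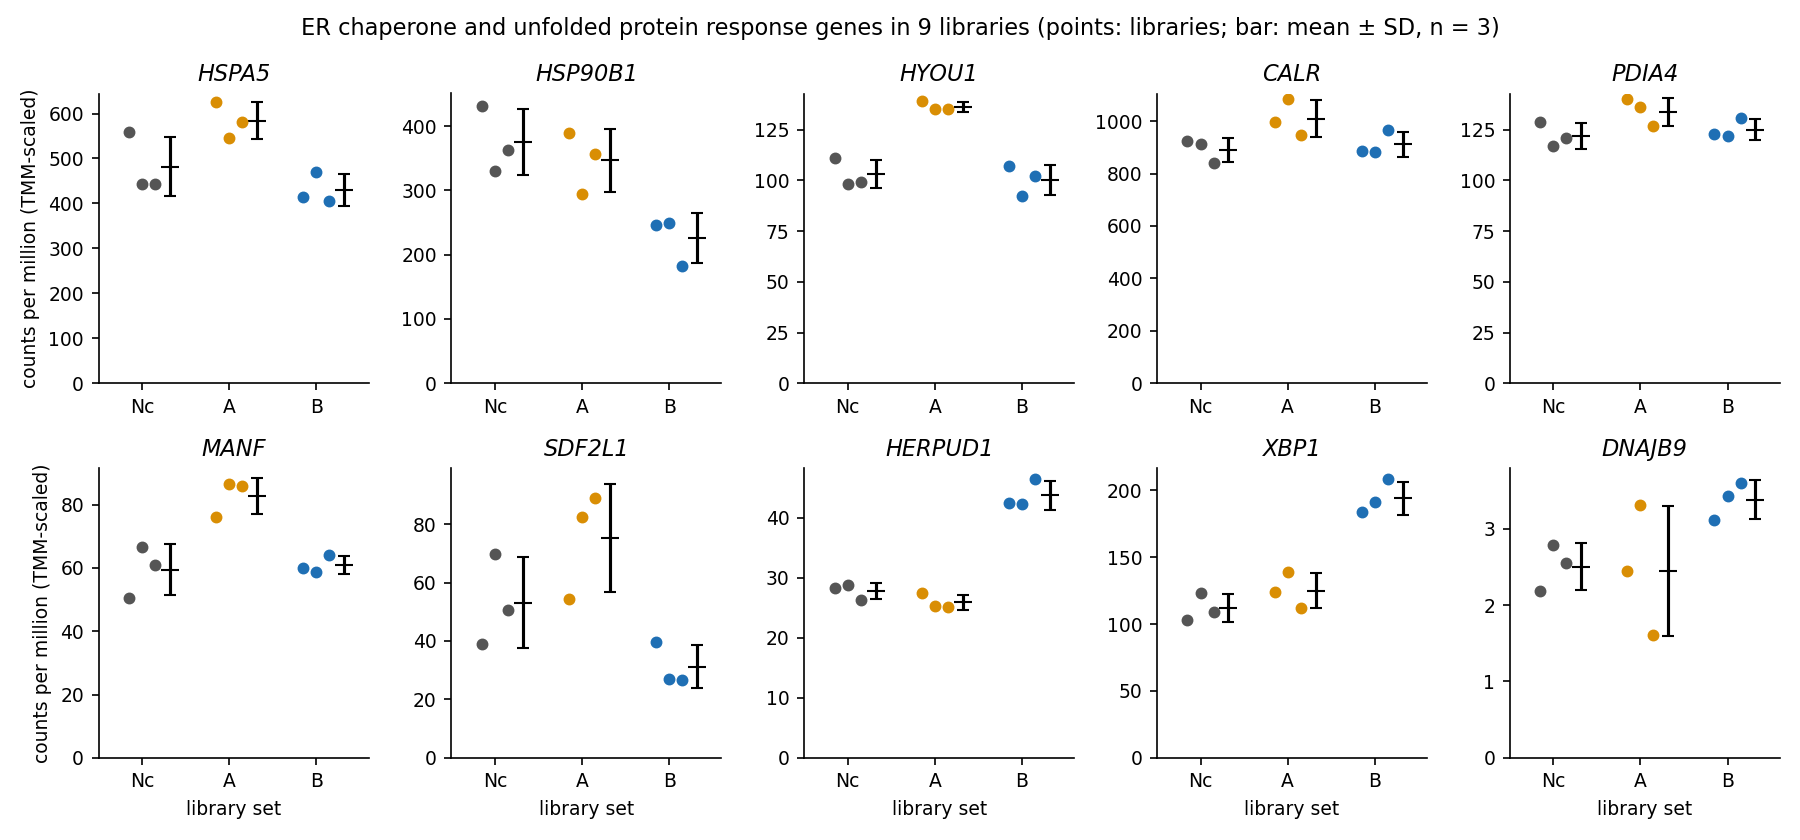
Level of each of the 10 genes in TMM-scaled CPM (vertical axis, linear, from 0) in control libraries (Nc) and treated sets A and B; points are libraries and bars the mean ± SD (n = 3). XBP1 and HERPUD1 lie higher in all 3 B libraries than in the 6 others, and HSP90B1 lies lower in all 3 B libraries than in the 6 others.

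Between set B and the control, 2 of the 10 genes rose, XBP1 by 1.74-fold and HERPUD1 by 1.57-fold, and 2 fell, HSP90B1 (1.66-fold lower) and SDF2L1 (1.70-fold lower). The other 6 did not pass the threshold, an adjusted p under 0.05 over all genes tested with edgeR's quasi-likelihood test. Among all genes tested, 6.12% rose and 7.24% fell in this comparison. Of all calls, 45.8% were higher, and 60.4% were with library totals as the only scaling. The median log2 fold change of the 10 genes was 0.03, and that of all genes was 0.00.

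Between set A and the control, MANF alone passed, 1.39-fold higher, and none fell. Of all genes, 1.76% rose and 0.953% fell. The median log2 fold change of the 10 genes was 0.17 against 0.01 over all genes.

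Set B was also compared with set A, which tests whether the treated sets differ from each other. Here 2 genes were higher in B (XBP1 and HERPUD1) and 5 were lower (SDF2L1, HSP90B1, HSPA5, HYOU1 and MANF), while 8.79% of all genes were higher and 9.25% lower. Of all calls, 48.7% were higher, and 62.8% with library totals. The median of the 10 genes was -0.29 against -0.02 over all genes. The 3 comparisons share libraries and are not independent of each other.

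**Figure D2:**
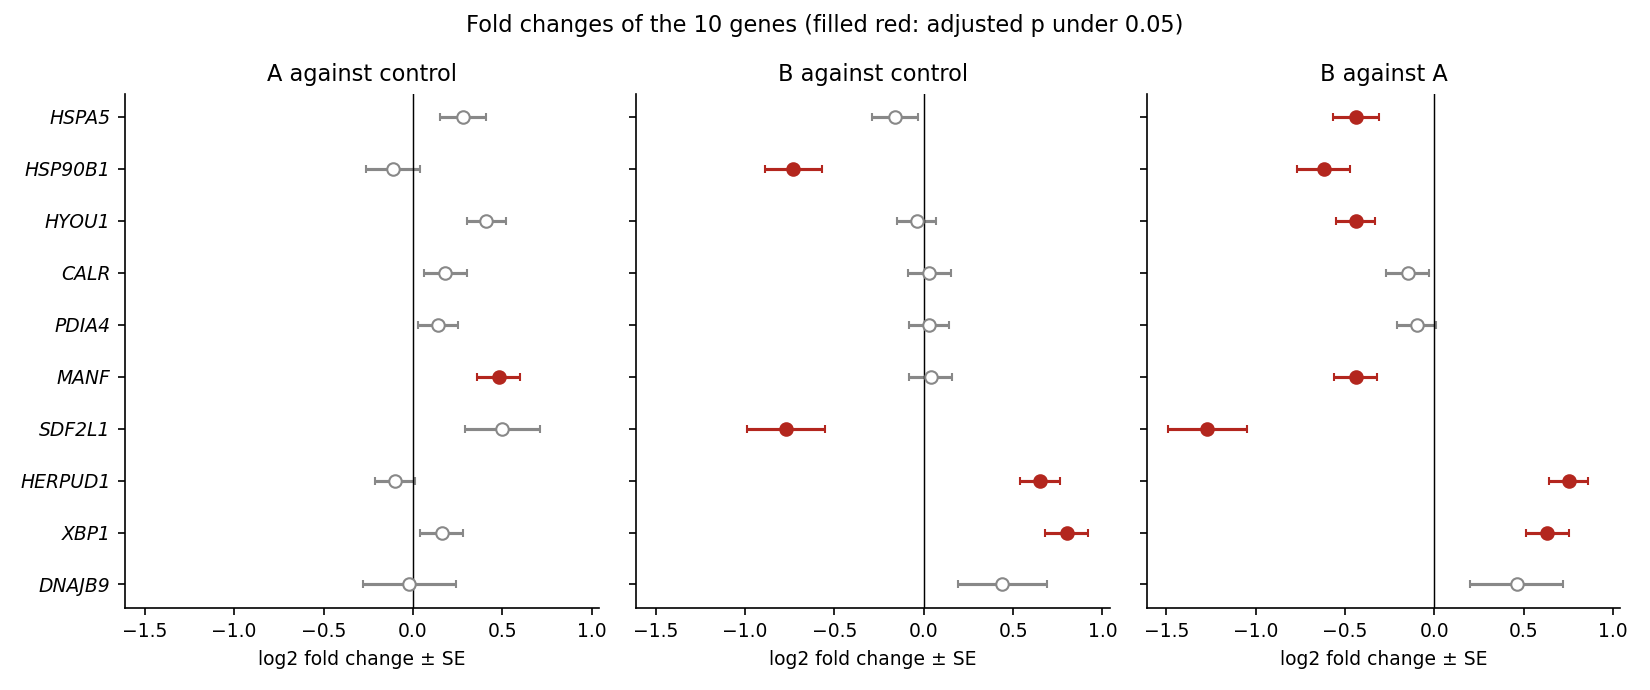
Log2 fold change (horizontal axis) ± SE of each of the 10 genes in the 3 comparisons, with filled red points where the adjusted p was under 0.05. XBP1 and HERPUD1 lie to the right of 0 in both comparisons of B, and SDF2L1 and HSP90B1 lie to the left in both.

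XBP1, the transcription factor of the IRE1 arm (ENSG00000100219, chr22:28794555-28800597, minus strand, GRCh38), was at 103, 123 and 109 CPM in the 3 control libraries, in the order of their numbers. It was at 124, 139 and 112 CPM in A and at 184, 191 and 208 CPM in B. All 3 B libraries were above the 6 others, and A overlapped the control. On the log2 scale, the fold change of XBP1 was 0.80 (SE 0.12, edgeR adjusted p = 0.0016) for B against the control. It was 0.63 (SE 0.12, edgeR adjusted p = 0.00282) for B against A and 0.16 (SE 0.12, edgeR adjusted p = 0.449) for A against the control. Without the 3 libraries rich in HBB (Nc1, Nc2 and B3), which leaves 1 control library, the XBP1 value for B against the control was 0.78 with an edgeR adjusted p of 0.153, and for B against A it was 0.58 with 0.0183.

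HERPUD1 encodes a membrane protein of the ER-associated degradation machinery (ENSG00000051108, chr16:56932048-56944863, plus strand). Its level was 28.3, 28.8 and 26.3 CPM in the control, 27.4, 25.3 and 25.1 CPM in A and 42.5, 42.2 and 46.5 CPM in B. As for XBP1, the B libraries lay above the 6 others and A overlapped the control. For HERPUD1 the log2 fold change was 0.65 (SE 0.11, edgeR adjusted p = 0.00273) for B against the control and 0.75 (SE 0.11, edgeR adjusted p = 0.000412) for B against A. For A against the control it was -0.10 (SE 0.11, edgeR adjusted p = 0.623). Without the 3 HBB-rich libraries the HERPUD1 value for B against the control was 0.68 with an edgeR adjusted p of 0.205.

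HSP90B1, the HSP90 of the ER (ENSG00000166598, chr12:103930107-103953645, plus strand), was at 431, 331 and 363 CPM in the control, 390, 294 and 357 CPM in A and 246, 250 and 182 CPM in B. All B libraries were below the 6 others. The log2 fold change of HSP90B1 was -0.73 (SE 0.16, edgeR adjusted p = 0.00767) for B against the control and -0.62 (SE 0.15, edgeR adjusted p = 0.0126) for B against A. Its GC content is low, at 41.2%. With an offset for GC content and length the value for B against the control was -0.51 (edgeR adjusted p = 0.00316). Leaving out B3, the lowest library, ended this call (edgeR adjusted p = 0.059), as did leaving out the 3 HBB-rich libraries (-0.55, edgeR adjusted p = 0.371). Against A the call was lost without A3, without B3 and without the HBB-rich libraries (-0.49, edgeR adjusted p = 0.0647).

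SDF2L1 encodes a soluble ER protein that works with the co-chaperones of BiP (ENSG00000128228, chr22:21642261-21644298, plus strand). It had the widest spread of the well-counted members: 38.9, 69.7 and 50.5 CPM in the control, 54.2, 82.6 and 88.8 CPM in A and 39.6, 27.1 and 26.7 CPM in B. B1 overlapped the control, at Nc1, and no B library reached the level of A. The log2 fold change of SDF2L1 was -1.27 (SE 0.22, edgeR adjusted p = 0.00108) for B against A, the largest of the 10 genes, or 2.41-fold lower. It was -0.77 (SE 0.22, edgeR adjusted p = 0.0296) for B against the control and 0.50 (SE 0.21, edgeR adjusted p = 0.183) for A against the control. SDF2L1 has the highest GC content of the 10 at 65.5%. With the offset for GC content and length the values were -0.87 for B against A, -0.69 for B against the control and 0.18 for A against the control. The latter comparison passed the threshold without A1 (edgeR adjusted p = 0.0432) and with no filter on low counts (0.0447). The call against the control was lost without Nc2, Nc3, B2 or B3 and without the 3 HBB-rich libraries (-0.60, edgeR adjusted p = 0.366).

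HSPA5, HYOU1 and MANF had one shape: A was the highest set and B was near the control. In the fit reported, the 3 genes passed the test between B and A and, apart from MANF, in no comparison with the control. HSPA5, which encodes BiP, the main HSP70 of the ER (ENSG00000044574, chr9:125234853-125241330, minus strand), was at 559, 444 and 444 CPM in the control, 626, 545 and 581 CPM in A and 415, 471 and 405 CPM in B. Nc1 lay within the range of A, and no B library did. HSPA5 had a log2 fold change of 0.28 (SE 0.13, edgeR adjusted p = 0.222) for A against the control, -0.16 (SE 0.13, edgeR adjusted p = 0.432) for B against the control and -0.44 (SE 0.13, edgeR adjusted p = 0.0283) for B against A. With the GC and length offset the value for A against the control was 0.33 and passed the threshold (edgeR adjusted p = 0.0217), also with the replicate number as a block (0.0444).

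HYOU1 encodes a large HSP70 relative that acts as a nucleotide exchange factor of BiP (ENSG00000149428, chr11:119044189-119057202, minus strand). It was at 111, 98.3 and 99.0 CPM in the control, 139, 135 and 135 CPM in A and 107, 92.3 and 102 CPM in B. All A libraries were above the 6 others. The log2 fold change of HYOU1 for A against the control was 0.41 (SE 0.11), with an edgeR adjusted p of 0.068. For B against the control it was -0.04 (SE 0.11, edgeR adjusted p = 0.872) and for B against A -0.44 (SE 0.11, edgeR adjusted p = 0.0148). With DESeq2 the value for A against the control was 0.39 and passed the threshold (DESeq2 adjusted p = 0.012). This was the only 1 of 18 other settings in which it passed.

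MANF, a small secreted ER protein that binds BiP (ENSG00000145050, chr3:51385047-51389397, plus strand), was at 50.6, 66.5 and 61.0 CPM in the control, 76.0, 86.4 and 85.8 CPM in A and 59.9, 58.7 and 64.2 CPM in B. As for HYOU1, all A libraries were above the 6 others. Log2 fold changes of MANF were 0.48 (SE 0.12, edgeR adjusted p = 0.0471) for A against the control, 0.04 (SE 0.12, edgeR adjusted p = 0.874) for B against the control and -0.44 (SE 0.12, edgeR adjusted p = 0.0207) for B against A. The call for A against the control was at the threshold: it was lost under 14 of 18 other settings, with adjusted p from 0.00516 to 0.638 over all of them. With the replicate number as a block the edgeR adjusted p was 0.0699. It was also lost when any 1 library other than A1 was left out. The calls of B against A for these 3 genes rest on single libraries as well. That of HSPA5 was lost without A1, A3, B1 or B3, that of HYOU1 without A3, B2 or B3, and that of MANF without A2, A3, B1, B2 or B3. Without the HBB-rich libraries the values for B against A were -0.41 for HSPA5 (edgeR adjusted p = 0.128), -0.46 for HYOU1 (0.0645) and -0.49 for MANF (0.0434).

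CALR and PDIA4 did not pass the test in any comparison. CALR (ENSG00000179218, chr19:12938578-12944489, plus strand) was at 924, 911 and 839 CPM in the control, 998, 1085.6 and 946 CPM in A and 887, 882 and 967 CPM in B. The A libraries were above the control, and B overlapped both. The log2 fold change of CALR was 0.18 (SE 0.12) for A against the control, 0.03 (SE 0.12) for B against the control and -0.15 (SE 0.12) for B against A.

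PDIA4 encodes a protein disulfide isomerase (ENSG00000155660, chr7:149003062-149028641, minus strand). It was at 129, 117 and 121 CPM in the control, 140, 136 and 127 CPM in A and 123, 122 and 131 CPM in B, and the sets overlapped. Log2 fold changes of PDIA4 were 0.14 (SE 0.11), 0.03 (SE 0.11) and -0.10 (SE 0.11) in the same order of comparisons.

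DNAJB9 encodes ERdj4, a co-chaperone of BiP (ENSG00000128590, chr7:108569568-108574850, plus strand). It had 23 to 69 counts a library: 2.18, 2.78 and 2.55 CPM in the control, 2.45, 3.31 and 1.61 CPM in A and 3.11, 3.43 and 3.60 CPM in B. DNAJB9 had a log2 fold change of 0.44 (SE 0.25, edgeR adjusted p = 0.272) for B against the control, which did not pass at this depth. On the opposite strand it is overlapped by PNPLA8 with 93 to 238 counts and THAP5 with 51 to 150, and the strand setting of the counting is not given in the sources used here. Whether reads of these genes were kept apart from those of DNAJB9 is therefore not known, and the values of DNAJB9 are uncertain. HSP90B1 also overlaps an opposite gene, C12orf73, whose 102 to 146 counts are few beside its own 3488 to 7733.

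Ratios between members within a library need no scaling between libraries, but differences in base composition between libraries can remain in them. They were chosen after the levels were seen and are a description, since an exact permutation test of 3 against 3 libraries cannot go below p = 0.10. HSP90B1 over HSPA5, in FPKM, was 0.642, 0.621 and 0.680 in the control, 0.519, 0.449 and 0.511 in A and 0.493, 0.443 and 0.374 in B. Both treated sets lay below the control for the ratio of these ER members of the HSP90 and HSP70 families. For A against the control, the log2 fold changes of HSP90B1 and HSPA5 were -0.11 and 0.28, and 0.09 and 0.33 with the GC and length offset. For B against the control they were -0.73 and -0.16, and -0.51 and -0.13 with the offset. XBP1 over HSP90B1 was 0.371, 0.578 and 0.464 in the control, 0.493, 0.731 and 0.488 in A and 1.16, 1.18 and 1.77 in B. HERPUD1 over SDF2L1 was 0.155, 0.0881 and 0.111 in the control, 0.108, 0.0653 and 0.0602 in A and 0.229, 0.331 and 0.370 in B. For the latter pair of ratios B lay above the 6 other libraries. HYOU1 over HSPA5 overlapped between the sets, at 0.109 ± 0.00704, 0.119 ± 0.00672 and 0.119 ± 0.0171 in control, A and B.

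**Figure D3:**
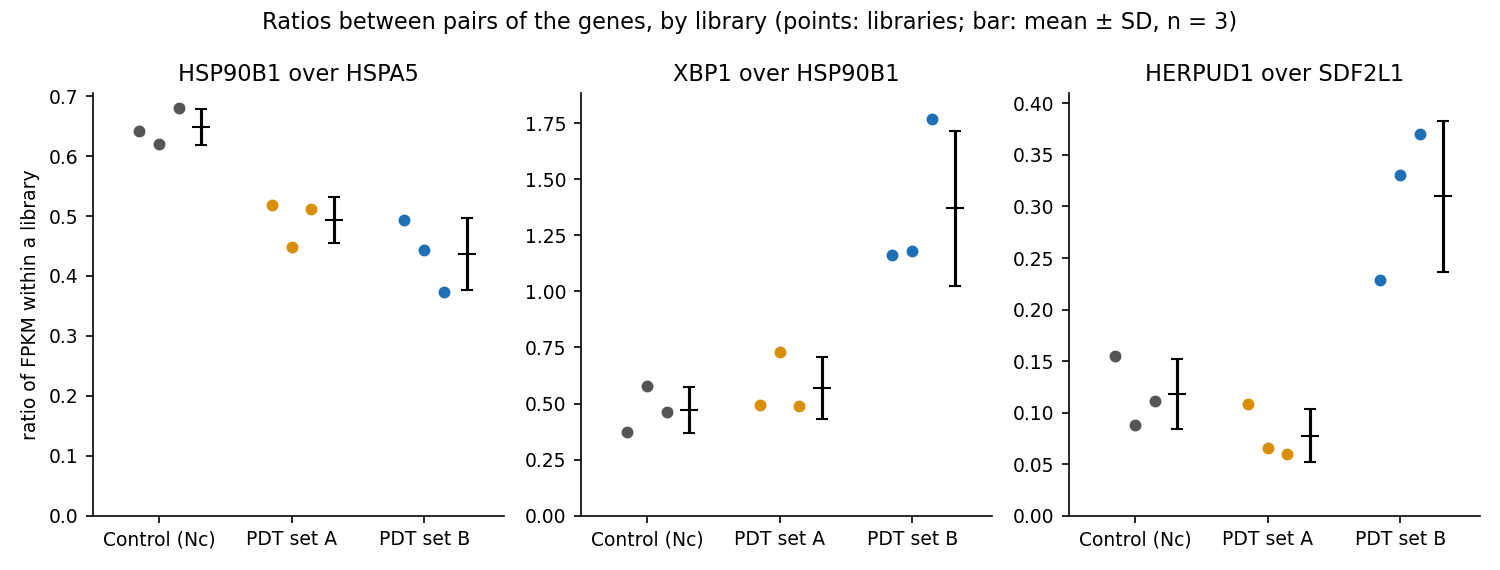
Ratio of FPKM within each library (vertical axis, linear, from 0) for HSP90B1 over HSPA5, XBP1 over HSP90B1 and HERPUD1 over SDF2L1; points are libraries and bars the mean ± SD (n = 3). HSP90B1 over HSPA5 is 0.621 to 0.680 in the control and at most 0.519 in the treated libraries.

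The members' pattern over the 9 libraries was not uniform. The correlation of a gene's log2 CPM with the mean of the 9 other members was 0.82 for CALR, 0.80 for MANF and 0.74 for HYOU1, and it was -0.65 for HERPUD1, -0.42 for XBP1, -0.39 for DNAJB9 and -0.31 for HSP90B1. The other values were 0.59 for PDIA4, 0.38 for HSPA5 and -0.02 for SDF2L1. The genes outside the list most like the mean of the 10 members, among 9720 genes whose mean count was 100 or more, were RHOB (r = 0.97), HMGXB3, PLAU, TMBIM1 and ACTG1 (r = 0.96 each). These correlations are over 9 libraries that share their depth, base composition and treatment sets, and they are given as a description.

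Other genes of the pathway were counted from 8 lists. The lists were chosen with earlier results of these data known, so their counts are a description. The PERK and ATF4 list was the one with the most calls: 7 of its 10 genes rose in B against the control and none fell, where 6.12% and 7.24% of all genes did, with a median log2 fold change of 0.78. ASNS, the asparagine synthetase, was at 0.837, 0.906 and 1.01 CPM in the control, 1.34, 1.17 and 1.19 CPM in A and 3.35, 5.23 and 6.31 CPM in B. Its log2 fold change for B against the control was 2.43 (SE 0.29, edgeR adjusted p = 0.000246). CHAC1, which encodes an enzyme that degrades glutathione, was at 6.36, 7.51 and 7.18 CPM in the control, 4.20, 4.68 and 4.75 CPM in A and 21.1, 16.2 and 19.0 CPM in B. Its log2 fold change was 1.42 (SE 0.16, edgeR adjusted p = 0.000133). For both genes B lay above the 6 other libraries.

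The stress-induced transcription factor ATF3 rose by 1.36 (SE 0.16, edgeR adjusted p = 0.000266) on the log2 scale. NUPR1 rose by 1.67 (SE 0.50, edgeR adjusted p = 0.0376) and had at most 14 counts in any library. The other 3 that rose were SESN2 at 1.00, DDIT3 (CHOP) at 0.56 and TRIB3 at 0.44, and PPP1R15B, CEBPB and PPP1R15A did not pass. TRIB3 was at 59.8, 73.5 and 74.1 CPM in the control and 81.6, 96.9 and 104 CPM in A. In B it was at 99.6, 79.3 and 103 CPM. For TRIB3 both treated sets thus lay above the control and overlapped each other. Against A, 6 of the 10 were higher in B and 1 lower, beside 8.79% and 9.25% of all genes, with a median of 0.75. The lower one was PPP1R15A (GADD34), a phosphatase subunit that reverses the PERK signal. PPP1R15A was the only gene of its list to pass the threshold in A against the control, higher by 0.82 (SE 0.13, edgeR adjusted p = 0.00322). It was at 118, 133 and 124 CPM in the control, 194, 251 and 217 CPM in A and 120, 94.5 and 109 CPM in B. Without the 3 HBB-rich libraries the number of calls in this list was 0 for A against the control, 2 for B against the control and 7 for B against A. For B against the control it was 4 without Nc3 and 4 without B3.

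Of 9 UPR sensors and transducers, 2 rose in B against the control (6.12% of all genes did), none fell, and none passed in A against the control. The count of 2 was 1 without Nc2, Nc3, B2 or B3 and 0 without the HBB-rich libraries. ATF4 was at 318, 416 and 374 CPM in the control, 375, 477 and 432 CPM in A and 634, 514 and 570 CPM in B. The log2 fold change of ATF4 for B against the control was 0.63 (SE 0.14, edgeR adjusted p = 0.00923), and against A it was 0.42 (SE 0.14, edgeR adjusted p = 0.0466). The call against A was lost without Nc3, A1, A2, A3, B1 or B3 and without the HBB-rich libraries. ERN1, the gene of IRE1, was at 6.41, 5.63 and 5.75 CPM in the control, 6.71, 8.68 and 6.50 CPM in A and 8.88, 10.3 and 8.24 CPM in B. Its log2 fold change for B against the control was 0.62 (SE 0.17, edgeR adjusted p = 0.028), and the 1 A library at 8.68 lay within B. The log2 fold changes for B against the control of those that did not pass were -0.45 for MBTPS2, -0.21 for ATF6, -0.19 for EIF2AK3 (PERK), 0.14 for ATF6B, 0.12 for MBTPS1, 0.01 for CREB3 and 0.01 for CREB3L2. MBTPS1 and MBTPS2 encode the proteases that cut ATF6.

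**Figure D4:**
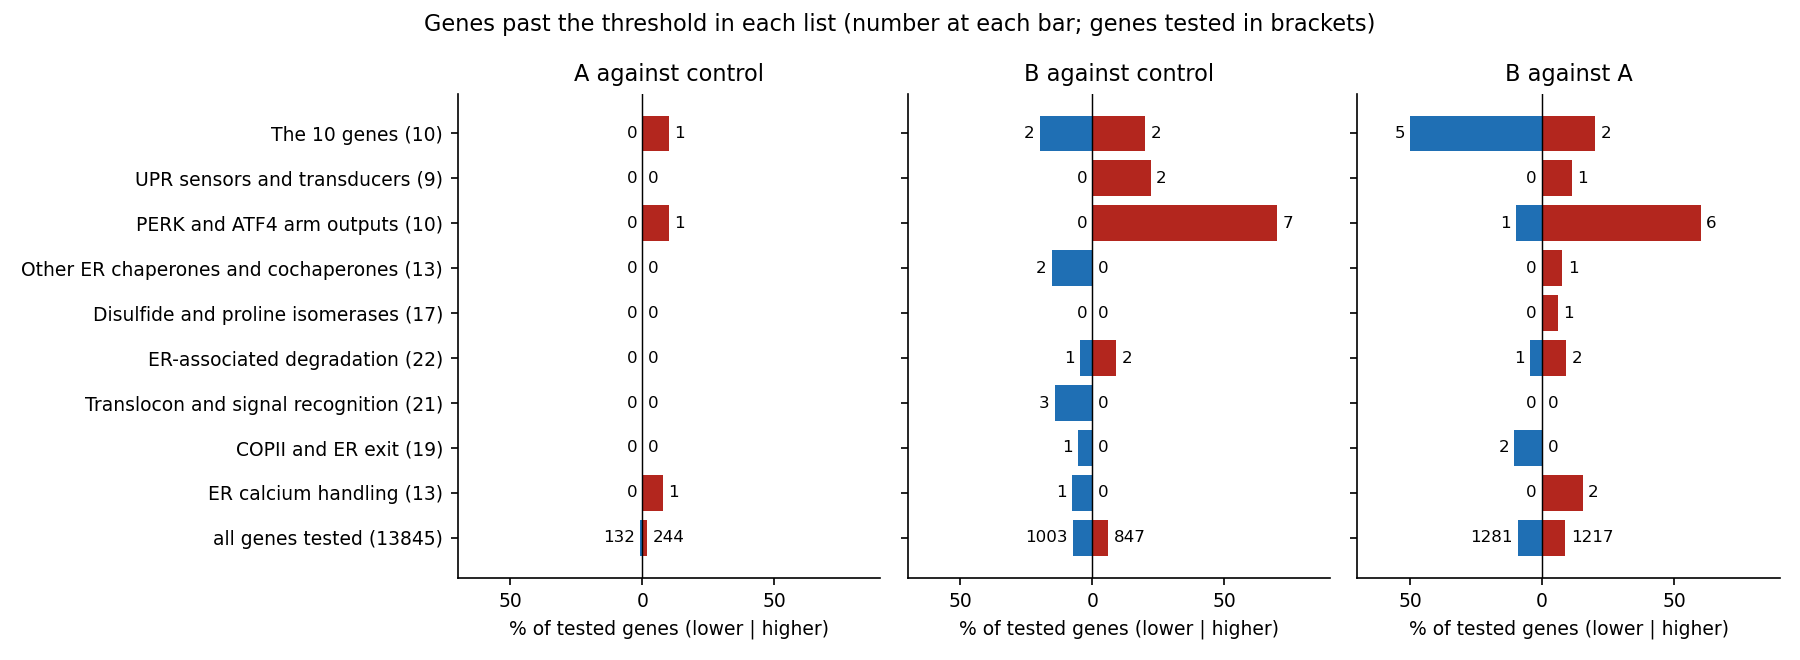
Share of the tested genes of each list past the threshold (horizontal axis, percent; lower to the left, higher to the right) in the 3 comparisons, with the number of genes at each bar and the genes tested in brackets. The PERK and ATF4 list has 7 of 10 genes higher in B against the control, while the lists of chaperones, isomerases, translocon and ER exit have none higher there. The lists were chosen with earlier results of these data known.

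In the remaining 6 lists few genes passed. In A against the control the only call was ITPR3, an ER calcium release channel, at 0.48 (edgeR adjusted p = 0.0359). It was lost with the replicate number as a block, with library totals, with only the 2 groups fitted, with the GC and length offset, without Nc2, Nc3, A2, A3 or B3, and without the HBB-rich libraries. In B against the control, where 6.12% of all genes rose and 7.24% fell, 2 of 13 other chaperones and co-chaperones fell and none rose: DNAJC3, an inhibitor of PERK and co-chaperone of BiP, at -0.58, and UGGT1, which checks the folding of glycoproteins, at -0.42. None of 17 isomerases passed there, while 3 did with the GC and length offset and 1 without B2. Of 22 genes tested in the ER-associated degradation list, 2 rose and 1 fell. SEL1L3 rose by 0.50, and EDEM3, a mannosidase-like protein, fell by 0.55. Of 21 translocon and signal recognition genes 3 fell, SRP72 by 0.73, SEC62 by 0.71 and SSR1 by 0.49, and none rose. Of 19 genes of ER exit SEC24B fell by 0.57, and of 13 ER calcium genes ITPR2 fell by 0.64. Without B3, or without the HBB-rich libraries, no gene of these 6 lists was called in B against the control. Without Nc3 the calls were 1 of chaperones, 1 of degradation and 0 of ER exit.

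In B against A, where 8.79% of all genes were higher and 9.25% lower, CLGN was the 1 call of the chaperone list, higher by 1.59 with at most 21 counts in any library. TXNDC12 was higher by 0.42 in the isomerase list. In the degradation list 2 genes were higher, among them SEL1L3 by 0.45, and UBE2J2, a ubiquitin-conjugating enzyme, was lower by a log2 fold change of -0.59. In the ER exit list PREB was at -0.50 and SEC31A at -0.46, and in the calcium list RCN1 was at 0.45 and RCN2 at 0.43. No translocon gene passed, while 6 did with the GC and length offset, 4 with the offset and the replicate block, and 2 without Nc1. Leaving out A3 or B3 took the calls of the chaperone, isomerase, ER exit and calcium lists to 0 and those of the degradation list from 3 to 1. Leaving out B2 also took those first 4 lists to 0, and leaving out A2 took the chaperone, isomerase and calcium lists to 0. Without A1 the chaperone and isomerase calls were lost, and without Nc3 the chaperone call was. The chaperone call was also lost with DESeq2, with no filter on low counts and with the replicate block. With the GC and length offset the calls were 3 of chaperones, 4 of isomerases, 6 of degradation and 5 of ER exit. The medians of these 6 lists lay between -0.17 and 0.17 in all 3 comparisons, where the medians of all genes tested were 0.01, 0.00 and -0.02.

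The ERSE and ERSE-II windows named 30 further genes of the table that are not members, and 23 of them were tested. This set was chosen after the members' values were seen. None of the 23 passed in A against the control. In B against the control, where 6.12% of all genes rose and 7.24% fell, 3 fell (PLS3 at -0.95, EIF2A at -0.62 and ZNF143 at -0.61) and none rose. In B against A, 1 was higher and 3 were lower, beside 8.79% and 9.25% of all genes. Among the members, the carriers of an ERSE were higher (XBP1), lower (HSP90B1) or past no threshold (HSPA5 and CALR) in B against the control, and the carriers of an ERSE-II likewise (HERPUD1, SDF2L1 and HYOU1 in that order).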

How the data were processed

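RNA of HaCaT cells was read as paired ends of 150 bases on an Illumina instrument, as the labels' protocols say. FastQC, HISAT2, StringTie and the build GRCh38 are named in the submitters' processing notes, with no version or role. Annotation release, strandedness and the treatment of multi-mapped reads were not given in the sources used here. Values came from a table of whole-number counts per gene and library, deposited by the authors with no normalization, and from a table of FPKM made by the authors. Each deposited FPKM was the count divided by the gene length and by a library constant of 0.936 to 1.07 times the library total. Coordinates of genes are those of the tables.

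Members were matched by gene symbol. The 10 members and the 8 gene lists were chosen with earlier results of these data known. A single edgeR 4.0.16 quasi-likelihood fit (R 4.3.3) held all 9 libraries, with TMM factors, filterByExpr and no replicate block. P-values were adjusted by Benjamini-Hochberg over the 13845 genes tested, with a threshold of 0.05. The SE is the log2 fold change divided by the square root of the F statistic. CPM are counts over TMM-scaled library totals. DESeq2 1.42.0 and other settings were run as alternatives. GC content and length came from the longest transcript in GENCODE release 29. The offset for these, and the fit without the libraries Nc1, Nc2 and B3, were chosen after seeing the data. In the latter the lone control library is assumed to vary like the other groups. Chi-square tests on library pairs of a set found 2414 to 7180 genes that differed, so no library is a copy of another.

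Columns with the same number deviated together in A and the control (correlations of deviations from the set means 0.47, 0.26 and 0.23). Their base composition also went with the number. The median deviation of the fifth lowest in GC content was 0.43, 0.06 and 0.13 in the control and 0.07, -0.21 and -0.09 in A. Whether the samples were paired was not tested. The replicate block was fitted over all 9 libraries, B included, and is no paired test of A and the control. On simulated counts of A against the control (13713 genes), the fit recovered 47 of 100 genes changed by 1.5-fold and 97 of 100 changed by 2-fold, with 11 other genes called. The simulated counts had the same dispersion for every gene and no differences between libraries in base composition or blood markers. Recovery and false calls in the real libraries were therefore not measured. Named were all 10 members, the UPR sensors, and in each other list the called genes with the 4 largest log2 fold changes in any comparison. Values of 1 such gene are not reported here. PPP1R15A, SESN2, DDIT3, TRIB3, PPP1R15B and CEBPB, and PLS3, EIF2A and ZNF143, fall outside this rule and were named after their values were seen. The genes most like the members were taken by correlation of log2 CPM (prior count 2). Figures were drawn with matplotlib 3.10.9 in Python 3.11.15.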

Additional observations from a re-analysis of the deposited data

Results flagged for a closer look

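For 7 of the 10 genes the level differed between set A and set B, by the edgeR test of B against A in the fit reported. On the log2 scale the difference was 0.75 for HERPUD1 and 0.63 for XBP1, higher in B in 3 of 3 libraries for both. It was -1.27 for SDF2L1 and -0.62 for HSP90B1, where all 3 B libraries were below all 3 A libraries. It was -0.44 for HSPA5, -0.44 for HYOU1 and -0.44 for MANF, and here too every B library lay below every A library. Percentages of all genes called in this comparison were 8.79% higher and 9.25% lower. Under the 18 other settings described below, HERPUD1, XBP1 and SDF2L1 kept this call throughout. It was lost under 7 of the 18 for HSPA5, 6 for MANF, 5 for HYOU1 and 3 for HSP90B1. By the labels, the treated groups had the same ALA and light and differed in the time after it, 12 h or 48 h. No label says which of A and B is which, so the direction of the difference in time cannot be told. An unlabelled difference between the sets, such as a batch, cannot be told apart from time.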

How the results depend on the processing

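Each fold change of the 10 genes was recomputed under 18 other settings. XBP1, HERPUD1 and SDF2L1 kept their calls for B against A under all 18. XBP1 and HERPUD1 kept theirs for B against the control under 17, all but the fit without the 3 HBB-rich libraries. Members called higher in A against the control numbered 1 in the fit reported, 2 with DESeq2, with the GC and length offset (also with the replicate block), and 0 with DESeq2's size factors, library totals, only the 2 groups compared, the replicate block, or without the HBB-rich libraries. Members called lower in B against the control numbered 2 in the fit reported, 1 with the replicate block (SDF2L1 at -0.72, edgeR adjusted p = 0.0525) and 0 without the HBB-rich libraries, where those called higher were also 0. Members called lower in B against A numbered 5, and 2 with library totals or without the HBB-rich libraries. With the replicate block HSPA5 was no longer called in B against A (edgeR adjusted p = 0.0545). Same-numbered columns did not deviate together in B and the control (correlations -0.30, -0.33 and -0.26) or in B and A (-0.24, -0.21 and -0.20). The block changed no other member's call, apart from that of MANF in A against the control, given above.

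Leaving out each library in turn gave 0 to 2 members higher in A against the control, 0 to 2 lower in B against the control and 1 to 5 lower in B against A. Over all genes it gave 69 to 559 higher and 32 to 351 lower in A against the control, 287 to 922 and 202 to 1171 in B against the control, and 587 to 1557 and 552 to 1735 in B against A. In A against the control (244 higher and 132 lower), DESeq2 called 443 and 317, the fit of only the 2 groups 151 higher, and the replicate block 149 higher. Genes lower there were 663 with no filter on low counts and 272 with the GC and length offset, and without the HBB-rich libraries 35 were higher and 31 lower. In B against the control (847 and 1003), 1934 were higher with the offset, 1728 with the offset and the block and 33 without the HBB-rich libraries; 492 were lower with library totals, 1535 with no filter and 11 without the HBB-rich libraries. In B against A (1217 and 1281), 2484 were higher with the offset and 2300 with the offset and the block, and 799 were lower with library totals and 774 without the HBB-rich libraries. The causes were not tested, apart from fewer libraries in the fits that leave some out.

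Signs that reversed belong to uncalled values near 0. In A against the control the offset, without and with the block, gave HSP90B1 0.09 and 0.09, DNAJB9 0.19 and 0.18, and PDIA4 -0.01 and -0.01. In B against the control it gave PDIA4 -0.06 and -0.06, CALR -0.06 and -0.05, and MANF -0.04 and -0.04, and no filter gave -0.02, -0.02 and -0.01 for these 3. Without the HBB-rich libraries HYOU1 was at 0.00 and MANF at -0.05. Leave-one-out ranges were -0.20 to 0.00 for HSP90B1 and -0.28 to 0.20 for DNAJB9 in A against the control, and in B against the control -0.06 to 0.03 for HYOU1, 0.00 to 0.07 for PDIA4, -0.01 to 0.07 for CALR and -0.07 to 0.14 for MANF. Depth limits DNAJB9, at 23 to 69 counts, and NUPR1 and CLGN, at up to 21.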
